A study of Mus musculus with 2 samples.

Results

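The urea cycle and glutaminase genes followed here were Nags, Cps1, Otc, Slc25a15, Gls2, Ass1, Asl and Arg1. They were taken by symbol, from a list drawn up with earlier results of these data known, and each had 1 row among the 19465 genes of the deposited spot tables, so the members were 8 of 19465. The urea cycle turns toxic ammonia into urea, and hepatocytes are its main site. Its first steps run in the mitochondrion and its later steps in the cytosol, with ornithine carried back across the inner membrane to start the next round. Hepatocytes close to the portal tracts are known for urea synthesis and for breaking down glutamine, while the rim of hepatocytes around the central vein is known for making glutamine from the ammonia that is left.

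The data were spatial transcriptomes of 2 mouse liver sections, 1 from an AEG-1-WT female (the wild type below) and 1 from an AEG-1-C75S littermate (the knock-in below). AEG-1 (gene Mtdh) is a membrane protein that carries a palmitate on a cysteine, and the AEG-1-C75S mouse is a CRISPR/Cas9 knock-in in which a serine takes the place of that cysteine. Both mice were naïve females of 8 weeks from heterozygous parents, and the same lobe of each liver was fixed in formalin, embedded in paraffin and cut to 1 section of 5 μm. Probe pairs were ligated on the RNA, captured on barcoded spots and counted as unique molecular identifiers (UMIs), so that a spot reports a small region holding several cells and not a cell. With 1 section per genotype there was no replicate, no test between genotypes was made, and genotype, animal and section cannot be told apart. Every interval below is an exact or analytic 95% interval that covers counting error only. In a spot or a section, fewer cells of a type and less RNA per cell cannot be told apart.

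After spots with more than 50000 UMIs or more than 7000 genes were left out, 2309 AEG-1-WT spots and 2163 AEG-1-C75S spots remained, with 42246988 and 41674347 UMIs. The median spot held 16830 and 18808 UMIs. All 5 hepatocyte markers (Alb, Ttr, Apoa1, Serpina3k and Fgb) were detected in both sections, and they summed to 182175 and 192007 CPM (UMIs scaled to a total of 1000000). Mtdh itself was counted at 74.4 CPM in the AEG-1-WT section and 73.3 CPM in the AEG-1-C75S section, and these counts do not read the altered codon. The sections shared 1896 spot barcodes, which are fixed positions on the slide and not cells.

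The members span 7 chromosomes of the mouse genome (positions on GRCm38/mm10). Nags (chr11:102145513-102149477, plus strand) encodes N-acetylglutamate synthase, which makes the activator that carbamoyl phosphate synthetase needs. Cps1 (chr1:67123026-67231259, plus strand) encodes that synthetase, the step at which ammonia enters the cycle. Otc (chrX:10252305-10321024, plus strand) encodes ornithine transcarbamylase, which forms citrulline. Slc25a15 (chr8:22375551-22398597, minus strand) encodes the mitochondrial ornithine carrier. Gls2 (chr10:128194457-128210004, plus strand) encodes the liver form of glutaminase, which releases ammonia from glutamine beside Cps1. In the cytosol, Ass1 (chr2:31470207-31520672, plus strand) encodes argininosuccinate synthase, Asl (chr5:130011258-130029247, minus strand) encodes argininosuccinate lyase, and Arg1 (chr10:24915221-24927484, minus strand) encodes the arginase that releases urea and returns ornithine.

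RefSeq promoters (GRCm38.p6) were held for 4 of the 8 members, and these are Otc, Ass1, Slc25a15 and Nags. These 4 are shown because they had an entry, with Ass1 among them for its low count. Each run is 120 bases that end just before the start of the gene (for Slc25a15, before its RefSeq start, which lies upstream of the position given above), read 5′ to 3′ on the coding strand, and capitals mark the motif GGGCGG or, on the other strand, CCGCCC.
Otc (chrX:10252185-10252304, plus strand): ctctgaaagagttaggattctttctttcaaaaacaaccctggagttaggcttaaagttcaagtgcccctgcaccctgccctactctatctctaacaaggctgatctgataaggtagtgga
Ass1 (chr2:31470087-31470206, plus strand): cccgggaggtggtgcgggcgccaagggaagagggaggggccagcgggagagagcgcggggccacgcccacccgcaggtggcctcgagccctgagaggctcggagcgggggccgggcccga
Slc25a15 (chr8:22398622-22398741, minus strand): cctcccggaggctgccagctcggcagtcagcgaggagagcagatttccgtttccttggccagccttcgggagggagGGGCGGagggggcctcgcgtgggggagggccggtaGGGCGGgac
Nags (chr11:102145393-102145512, plus strand): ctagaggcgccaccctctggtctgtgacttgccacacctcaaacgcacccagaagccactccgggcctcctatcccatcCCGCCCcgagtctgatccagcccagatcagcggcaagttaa

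The 4 promoters differed in base composition. Otc was 44.2% G or C with 0 CpG, and Ass1 was 79.2% G or C with 13 CpG, against a median of 54.2% over 32851 mouse promoters of the same length. Slc25a15 was at 72.5% with 10 CpG and Nags at 61.7% with 6 CpG. GGGCGG was searched on both strands and lay at 2 places in Slc25a15 and 1 in Nags, and 26.5% of all promoters held it in a window of this length. Neither TATAAA nor CCAAT, held by 6.34% and 21.3% of the promoters, was in any of the 4 windows. The Ass1 window ended 63 bases before its RefSeq start, so the bases next to that start were not searched. The windows of all promoters ended at the RefSeq start, so Ass1 is set against windows at another position. The motifs searched do not overlap each other, and a match is a description of the letters only.

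Taken over whole sections, the members held 0.716% of the UMIs in the wild-type section and 0.566% in the knock-in section. Their summed level was 7155 CPM in the wild type and 5657 CPM in the knock-in, a log2 ratio of -0.34 (-0.35 to -0.33). Every member but Otc had a lower value in the knock-in section, with Otc level. Asl, Gls2, Arg1, Nags and Slc25a15 were lower by more than 1.2-fold, which makes 5 of 8 members, and 0 of 8 were higher by that fold. Of the 10389 genes that reached 200 UMIs when both sections were added, 15.9% were lower by more than 1.2-fold and 8.3% were higher. The median log2 ratio was -0.37 over the members and -0.05 over all genes tested.

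Among the mitochondrial members, Nags had 4938 UMIs in the wild-type section and 3541 in the knock-in section. That was 117 against 85.0 CPM, a log2 ratio of -0.46 (-0.52 to -0.40). Cps1, with 163091 and 137779 UMIs, had the highest count of the members and was 24th and 30th among all genes of its section. Its level was 3860 CPM in the wild type and 3306 CPM in the knock-in, and its log2 ratio of -0.22 (-0.23 to -0.21) stayed inside 1.2-fold. Otc, the step after Cps1, had 6545 and 6462 UMIs and stood at 155 CPM in both sections, a log2 ratio of 0.00 (-0.05 to 0.05). Otc was thus the member whose level differed least between the sections.

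Slc25a15, the ornithine carrier, was counted at 9638 and 7834 UMIs. Its level of 228 CPM in the wild type and 188 CPM in the knock-in gave a log2 ratio of -0.28 (-0.32 to -0.24), the closest to the 1.2-fold line of the 5 genes past it. It was inside that fold with TMM factors (-0.22), with totals without the 20 most abundant genes (-0.23) and with centring on the median gene (-0.23). Gls2, the ammonia source, had 17021 and 10629 UMIs, or 403 and 255 CPM. Its log2 ratio of -0.66 (-0.69 to -0.62) was among the lowest of all genes, with 2.43% of the genes tested below it.

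In the cytosolic arm, Asl had 26129 UMIs (618 CPM) in the wild type and 16275 UMIs (391 CPM) in the knock-in. The log2 ratio was -0.66 (-0.69 to -0.64), with 2.35% of the genes tested below it. Arg1 had 74491 UMIs (1763 CPM) and 52845 UMIs (1268 CPM), a log2 ratio of -0.48 (-0.49 to -0.46). The lyase and the arginase, which act one after the other, were thus both lower in the knock-in section, the lyase by more. Ass1 had 431 UMIs (10.2 CPM) and 380 UMIs (9.12 CPM), and its log2 ratio of -0.16 (-0.36 to 0.04) had an interval that includes 0.

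**Figure D1:**
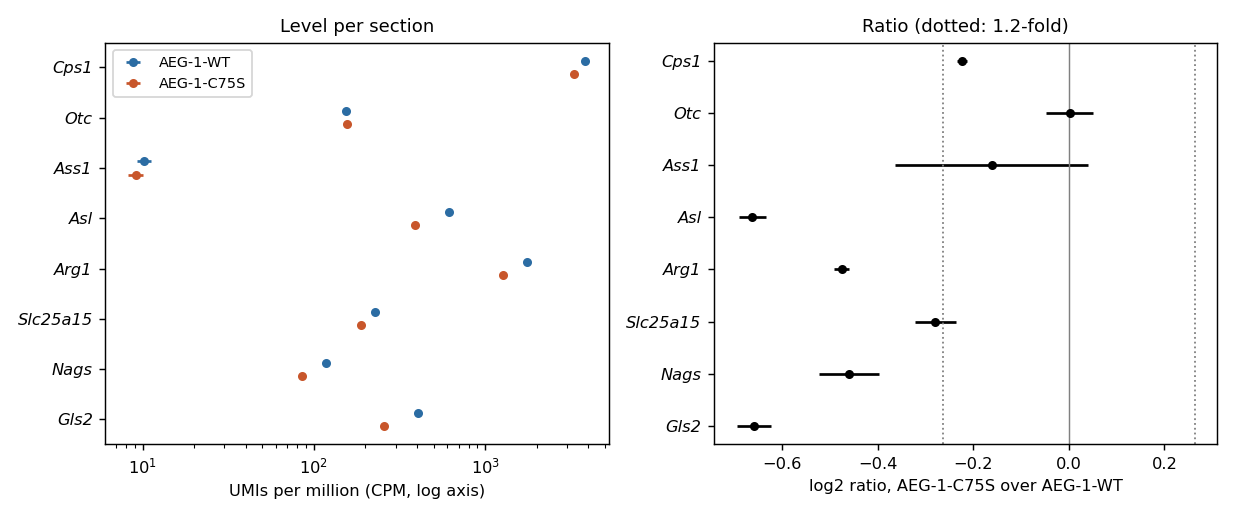
Levels of the 8 members in the AEG-1-WT and AEG-1-C75S sections (left, CPM on a log axis) and the log2 ratio of the sections (right, with dotted lines at 1.2-fold); bars are 95% counting intervals and each section is 1 mouse. Asl and Gls2 sit farthest to the left at -0.66, Otc sits at 0.00, and Ass1 lies far below every other member on the left.

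Markers of other cell types also differed between the sections, and their part in the values above was not tested. The 5 cholangiocyte markers summed to 129 CPM in the wild type and 96.6 CPM in the knock-in, the 5 portal connective tissue markers to 247 and 205 CPM, the 4 Kupffer cell markers to 784 and 1046 CPM, and the 4 stellate cell markers to 473 and 587 CPM. The 3 sinusoidal endothelium markers summed to 444 and 463 CPM, and the 3 red blood cell markers with a row to 611 and 404 CPM. The sums hide unequal members. Mgp, Dpt and Col1a1 of the connective tissue list had log2 ratios of -1.51, -1.48 and -1.58 where Dcn was at 0.35. Dcn, which the study used as a stellate cell marker, was the most counted gene of that list, at 107 and 136 CPM. In the Kupffer cell list Marco was at 1.62 and Clec4f at 0.10. In the stellate cell list Reln and Ecm1 were at 0.37 and 0.42, Colec11 at 0.07 and Lrat at -0.48. No marker of these lists was at 0 in either section. The hepatocyte markers were split, with Alb at a log2 ratio of -0.07 and Apoa1 and Fgb at 0.50 and 0.47.

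Ass1 stood apart from its partners by its count. It took 0.143% of the members' UMIs in the wild type and 0.161% in the knock-in, where Cps1 took 54.0% and 58.4% and Asl, the next enzyme of the cycle, 8.64% and 6.90%. By count Ass1 was 7385th among the genes of the wild-type section and 7598th in the knock-in section, while the other 7 members lay between 24th and 1435th. The number of probe pairs per gene and their efficiency are not given in the sources used here, so counts of different genes are set side by side without being read as transcript levels.

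At least 1 Ass1 UMI was seen in 382 of 2309 wild-type spots (16.5%, exact binomial interval 15.0 to 18.1%) and in 344 of 2163 knock-in spots (15.9%, 14.4 to 17.5%). No spot held more than 4 Ass1 UMIs. With each spot thinned to 3000 UMIs the shares were 2.52% and 2.78%. Genes not expected in liver were counted below Ass1, but the background of the Ass1 probes themselves is not known from these data. Of 15 genes not expected in liver, 8 were at 0 in each section, and the highest were Mbp, a myelin gene, at 2.46 CPM in the wild type and Syt1, a synaptic vesicle gene, at 3.14 CPM in the knock-in. Syt1 gave a UMI in 3.77% and 5.83% of the same spots, and in 0.868% and 1.16% once thinned, so Ass1 was counted above these genes, and far below Asl, which was seen in 99.8% and 98.2% of the spots.

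To place the members along the lobule, spots were ranked within each section by (Cyp2f2 + 1)/(Cyp2e1 + 1), a ratio of a periportal to a pericentral cytochrome P450, and cut into 5 equal steps. Step 1 is the pericentral side and step 5 the periportal side, with 461 or 462 wild-type spots and 432 or 433 knock-in spots each. The median ratio was 0.0377 and 0.0602 in step 1 and 1.09 in step 5 of both sections. Genes that the ranking did not use followed it. Hal, a periportal histidine-degrading enzyme, had a log2 ratio of step 5 over step 1 of 2.12 in the wild type and 1.93 in the knock-in, and Cyp1a2, a pericentral P450, of -2.41 and -2.19.

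Gls2, Asl and Arg1 were higher on the periportal side by more than 1.5-fold in both sections, and Cps1 passed that fold in the knock-in. These were 3 of 8 members in the wild type and 4 of 8 in the knock-in, and 0 members were lower by that fold in either. Of all 10387 genes tested, 4.51% were higher and 6.21% lower in step 5 by more than 1.5-fold in the wild type (10.7% either way). In the knock-in 3.42% were higher and 5.64% lower (9.06% either way), and 2.02% were higher in both. The median over all genes was -0.12 in the wild type and -0.09 in the knock-in. Otc, Slc25a15, Nags and Ass1 stayed inside 1.5-fold in both sections, except that Ass1 in the wild type went to -1.19, lower in step 5, with spots thinned to 3000 UMIs.

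Gls2 had the steepest profile. From step 1 to step 5 it read 198, 275, 397, 507 and 642 CPM in the wild type and 124, 183, 253, 295 and 426 CPM in the knock-in. The log2 ratio of the ends was 1.70 (1.62 to 1.78) in the wild type and 1.78 (1.68 to 1.89) in the knock-in. Each step was upward and the intervals of neighbouring steps did not overlap in either section. The median step 5 spot held 609 CPM in the wild type and 401 CPM in the knock-in, and 98.3% and 95.8% of the step 5 spots were above the median step 1 spot.

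Asl read 410, 488, 601, 731 and 867 CPM in the wild type and 295, 330, 373, 435 and 521 CPM in the knock-in. Its log2 ratio of the ends was 1.08 (1.02 to 1.14) in the wild type and 0.82 (0.75 to 0.89) in the knock-in. The lyase thus climbed at every step in both sections, and the periportal end of the knock-in section, at 521 CPM, lay between the values of step 2 and step 3 of the wild type. Arg1 read 1302, 1525, 1751, 1979 and 2265 CPM in the wild type and 895, 1109, 1264, 1359 and 1730 CPM in the knock-in, with log2 ratios of 0.80 (0.76 to 0.83) and 0.95 (0.91 to 0.99). Neighbouring steps of Asl and Arg1 were all apart beyond their counting intervals.

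Cps1 had a shallower profile on a high floor. It read 3118, 3539, 4041, 4196 and 4388 CPM in the wild type and 2538, 3020, 3461, 3518 and 4022 CPM in the knock-in. The log2 ratio of the ends was 0.49 (0.47 to 0.52) in the wild type and 0.66 (0.64 to 0.69) in the knock-in. In the knock-in the values of step 3 and step 4 were not apart beyond their intervals, and all other neighbours were. With the axis drawn from Hsd17b13 and Cyp1a2, with 3 steps in place of 5 or with thinned spots, Cps1 did not pass 1.5-fold in the knock-in.

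The counts of the other 4 members were close to level. Otc read between 148 and 168 CPM over the 5 steps of the wild type and between 144 and 178 CPM in the knock-in, with log2 ratios of 0.11 (0.00 to 0.23) and 0.27 (0.16 to 0.38). Slc25a15 read between 214 and 237 CPM in the wild type and between 181 and 204 CPM in the knock-in, with log2 ratios of 0.14 (0.05 to 0.24) and 0.09 (-0.01 to 0.19). Nags was the only member with its higher end on the pericentral side in both sections. It read 128 CPM in step 1 and 103 CPM in step 5 of the wild type, a log2 ratio of -0.31 (-0.44 to -0.17), and 92.0 and 82.6 CPM in the knock-in, a log2 ratio of -0.16 (-0.31 to -0.00). For Ass1 the log2 ratios of 0.02 (-0.44 to 0.48) and 0.15 (-0.33 to 0.63) had intervals that include 0. At 73 to 102 UMIs per step a gradient of the counts smaller than these bounds was not detectable. The bounds cover counting error only, and the background of the Ass1 probes is not known. These counts thus cannot say whether Ass1 RNA has a gradient. The study itself used Ass1 as a marker of periportal hepatocytes.

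**Figure D2:**
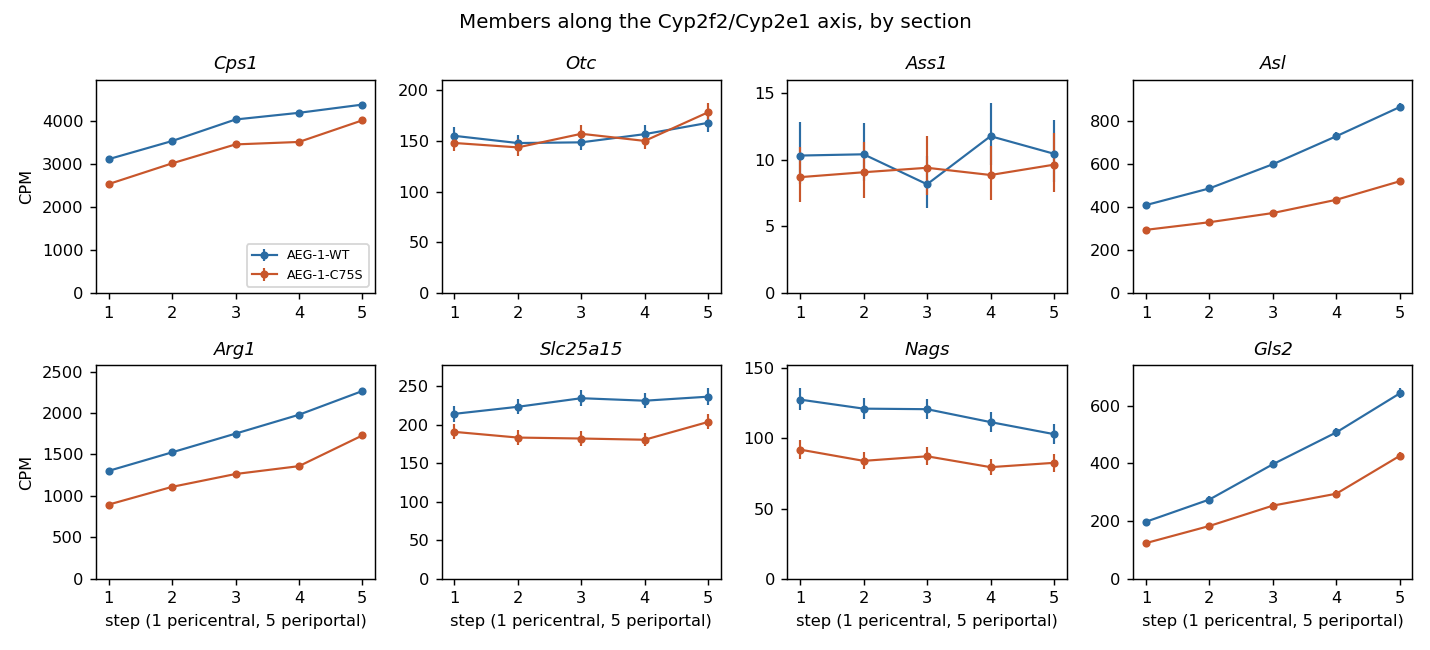
Level of each member (CPM) in the 5 steps of the (Cyp2f2 + 1)/(Cyp2e1 + 1) ratio, from pericentral (1) to periportal (5), in the AEG-1-WT and AEG-1-C75S sections; bars are 95% counting intervals and every vertical axis starts at 0. Gls2, Asl, Arg1 and Cps1 climb in both sections with AEG-1-C75S below AEG-1-WT at each step, Otc overlaps between sections, and Ass1 stays between 8.16 and 11.8 CPM.

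Where along the lobule the sections differed was read from the ratio of the knock-in over the wild type within each step. Gls2, Asl, Arg1, Nags, Slc25a15 and Cps1 were below 0 in all 5 steps, with intervals that leave out 0. The log2 ratio of Asl ran from -0.48 in step 1 to -0.75 in step 4, and that of Gls2 from -0.59 in step 2 to -0.78 in step 4. Arg1 ran from -0.39 in step 5 to -0.54 in step 4. The lower counts of these genes in the knock-in were thus present on the pericentral side as well as the periportal side.

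Nags ran from -0.32 in step 5 to -0.53 in step 2, Slc25a15 from -0.17 in step 1 to -0.36 in step 3, and Cps1 from -0.13 in step 5 to -0.30 in step 1. Otc ranged from -0.07 to 0.09 and Ass1 from -0.41 to 0.20, and no step of either had an interval that leaves out 0. Depth differed between the steps and sections too, with a median of 15865 to 18159 UMIs per spot over the steps of the wild type and 17785 to 21533 UMIs over those of the knock-in. With each spot thinned to 3000 UMIs, Asl, Gls2, Arg1, Nags and Slc25a15 were again the members lower by more than 1.2-fold over whole sections.

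**Figure D3:**
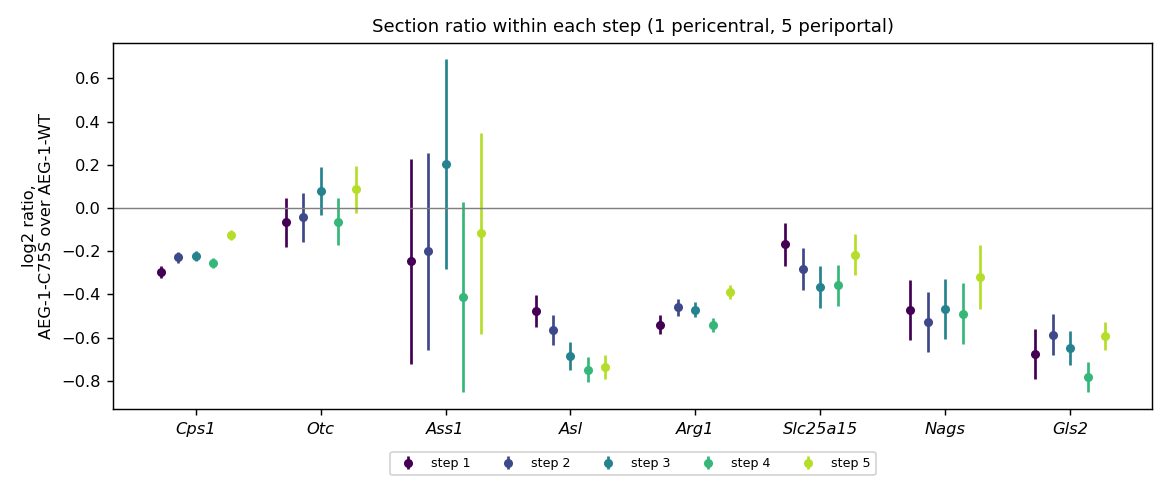
Log2 ratio of AEG-1-C75S relative to AEG-1-WT for each member within each of the 5 steps from pericentral (step 1) to periportal (step 5); points are ratios of 1 section per genotype and bars are 95% counting intervals. All points of Cps1, Asl, Arg1, Slc25a15, Nags and Gls2 lie below 0, and those of Otc and Ass1 have bars across 0.

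The gradients themselves were compared by subtracting the wild-type log2 ratio of step 5 over step 1 from that of the knock-in. Asl had a difference of -0.26 (-0.35 to -0.16), the flatter profile being in the knock-in. Periportal genes outside the members were flatter there too, with Sds at -0.35, Hal at -0.19 and Pck1 at -0.19. Cyp2f2, which the ranking used, was at -0.44. Hsd17b13 at -0.06 and Ctsc at 0.00 had intervals that include 0. Cps1 had a difference of 0.17 (0.14 to 0.21) and Arg1 of 0.15 (0.10 to 0.20), with the steeper profile in the knock-in. The difference for Gls2 was 0.08 (-0.05 to 0.21), for Nags 0.15 (-0.05 to 0.35), for Otc 0.15 (-0.00 to 0.31), for Slc25a15 -0.05 (-0.19 to 0.09) and for Ass1 0.13 (-0.51 to 0.77). None of the 8 members passed 1.2-fold, while 30.5% of the genes tested did. Asl was just inside that fold and went past it under 4 of 10 alternatives, with values down to -0.29.

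At the pericentral end, the spots richest in genes of the perivenous rim were looked at alone. These were the 5% of spots with the highest share of UMIs in Oat, Slc1a2, Rhbg, Lgr5, Tbx3 and Axin2, which made 115 spots in the wild type, 97 of them in step 1, and 108 in the knock-in, 86 of them in step 1. Compared with the other spots of step 1, Cps1 was at 2041 against 3438 CPM in the wild type and at 1836 against 2754 CPM in the knock-in. The log2 ratios were -0.75 (-0.80 to -0.70) and -0.59 (-0.64 to -0.54).

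Arg1 was at 879 against 1428 CPM and at 666 against 967 CPM, log2 ratios of -0.70 (-0.77 to -0.63) and -0.54 (-0.62 to -0.45). Gls2 had log2 ratios of -0.34 and -0.31. In the rim spots of both sections, Cps1, Arg1 and Gls2, 3 of 8, were lower by more than 1.2-fold, against 4.49% of all genes. By that fold 0 were higher, against 7.43%. The rim spots outside step 1 are part of this comparison. Gls2 was not past that fold in both sections with 10% of the spots or with thinned spots. With thinned spots Ass1, from few UMIs, was higher by that fold in both. Asl was at -0.35 and -0.25, Otc at -0.19 and -0.30, and Slc25a15 at -0.16 and 0.03. Nags was the member with a positive value in both, 0.26 (0.06 to 0.45) in the wild type and 0.16 (-0.07 to 0.39) in the knock-in. Albumin was lower there as well, at -0.27 and -0.20, and the median over all genes was 0.06 and 0.04.

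**Figure D4:**
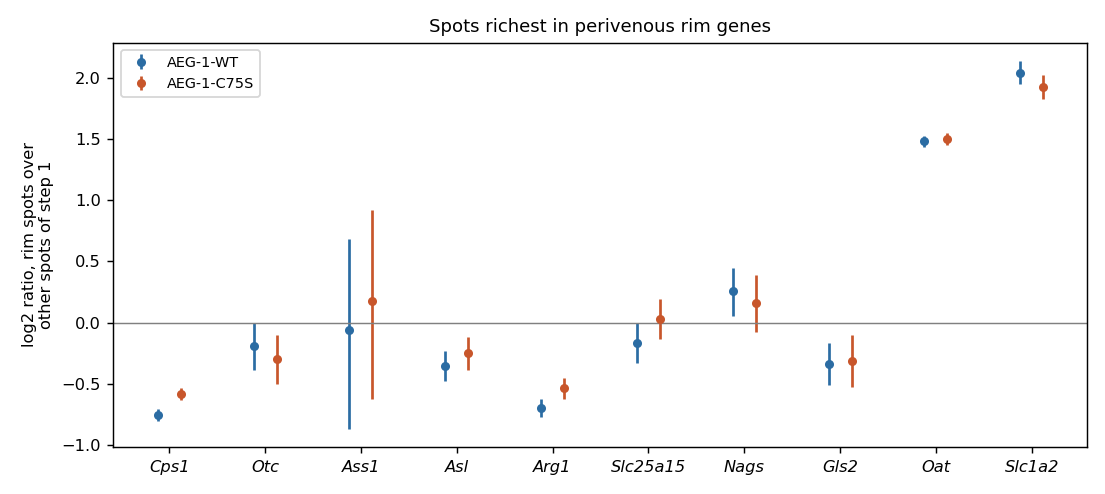
Log2 ratio of the 5% of spots richest in perivenous rim genes over the other spots of step 1, for the 8 members and for Oat and Slc1a2, which helped to choose the spots; bars are 95% counting intervals. Cps1 lies at -0.75 and -0.59 and Arg1 at -0.70 and -0.54, while Nags lies above 0 in both sections.

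A like comparison was made at the other end with the 5% of spots richest in the cholangiocyte and portal connective tissue markers. Of these, 52 of 115 lay in step 5 in the wild type and 41 of 108 in the knock-in, so the group was not a clean portal set. Nor were all its markers periportal. Dcn had log2 ratios of step 5 over step 1 of -0.39 in the wild type and -0.77 in the knock-in. Col3a1 (0.41 and -0.44) and Col1a1 (0.91 and -0.25) differed in sign between the sections, while Mgp (2.63 and 1.66) and Dpt (2.07 and 0.66) were positive in both. Cps1, Arg1 and Gls2 were lower in these spots than in the other spots of step 5 by more than 1.2-fold in both sections, 3 of 8 members against 1.44% of all genes, and 0 were higher by that fold in both, against 25.3%. The log2 ratios of Gls2 were -0.48 and -0.53, those of Arg1 -0.33 and -0.33 and those of Cps1 -0.30 and -0.31. Alb was at -0.28 and -0.17 in these spots, the median over all genes was 0.27 and 0.13, and the perivenous genes Oat (1.25 and 1.34) and Slc1a2 (1.61 and 1.61) were higher in them. Restricted to the marker-rich spots inside step 5, a comparison added after the data were seen, no member passed 1.2-fold in both sections. Gls2 was then at -0.31 (-0.45 to -0.18) in the wild type and -0.04 (-0.23 to 0.14) in the knock-in, and Cps1 at -0.19 and -0.10. The same restriction at the rim, to the rim spots inside step 1, gave 4 of 8 members lower by more than 1.2-fold in both sections. Cps1 was at -0.82 and -0.68, Arg1 at -0.76 and -0.63, Gls2 at -0.49 and -0.58, and Asl at -0.42 and -0.29. The share of all genes past that fold was not taken for either restricted comparison, so these member counts have no background beside them.

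A further 40 genes that feed, carry or control the cycle were read on the same scale, and 36 of them reached 200 UMIs. Between the sections, 15 were lower in the knock-in by more than 1.2-fold and 1 was higher, with a median log2 ratio of -0.22. Over all genes tested, 15.9% were lower and 8.3% higher, with a median of -0.05, and the counts of the lists below are to be read against the same shares. When the sections were scaled by TMM factors, by totals without the 20 most abundant genes or by the median gene, the split was 12 lower and 3 higher. Along the lobule, 1 was higher and 6 were lower in step 5 by more than 1.5-fold in both sections, where 2.02% and 3.08% of all genes were.

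Of the 14 tested genes that supply nitrogen or act beside the cycle in mitochondria, 7 were lower in the knock-in and 1, Aldh18a1, was higher. Prodh, the first enzyme of proline breakdown, was at 248 CPM in the wild type and 94.1 CPM in the knock-in, a log2 ratio of -1.40 (-1.45 to -1.35). The alanine aminotransferases Gpt, at 215 and 114 CPM, and Gpt2, at 87.6 and 46.4 CPM, both had a log2 ratio of -0.92. Car5a, the mitochondrial carbonic anhydrase that gives Cps1 its bicarbonate, was at 156 and 102 CPM, a log2 ratio of -0.61 (-0.67 to -0.56). Slc25a13, the aspartate carrier that serves Ass1, was at -0.32 and Glud1, glutamate dehydrogenase, at 0.17. Got1, the cytosolic aspartate aminotransferase, was the only tested partner higher in step 5 than in step 1 by more than 1.5-fold in both sections. Its log2 ratios were 0.96 and 0.92. Other partners leaned the same way without passing that fold in both, such as Slc7a2 at 0.65 and 0.53 and Ppargc1a at 0.69 and 0.50.

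Of the 9 tested transporters, 3 were lower in the knock-in and 0 were higher by more than 1.2-fold, where 15.9% and 8.3% of all genes were. These were Slc7a2, a cationic amino acid carrier (241 and 173 CPM, log2 ratio -0.48), and the amino acid carriers Slc38a3 (2047 and 1570 CPM, -0.38) and Slc38a4 (859 and 658 CPM, -0.39). Oat, ornithine aminotransferase of the perivenous hepatocytes, was at 838 and 631 CPM, a log2 ratio of -0.41. Its profile ran opposite to that of Gls2, with a log2 ratio of step 5 over step 1 of -3.08 in the wild type and -2.97 in the knock-in. Slc1a2, a glutamate carrier, was at -3.39 and -3.14, and Aqp9, a channel that passes glycerol and urea, at -1.14 and -0.93.

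Of 12 regulators known for urea cycle genes, all tested, 4 were lower in the knock-in by more than 1.2-fold. Klf15, a transcription factor of amino acid breakdown, was at 238 CPM in the wild type and 138 CPM in the knock-in, a log2 ratio of -0.79 (-0.83 to -0.74). Ppargc1a was at -0.29 and Foxo1 at -0.27. The hepatocyte factors Hnf4a and Cebpb were at 0.08 and 0.10, and Gcgr, the glucagon receptor, at -0.15. No regulator was past 1.5-fold along the lobule in both sections.

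**Figure D5:**
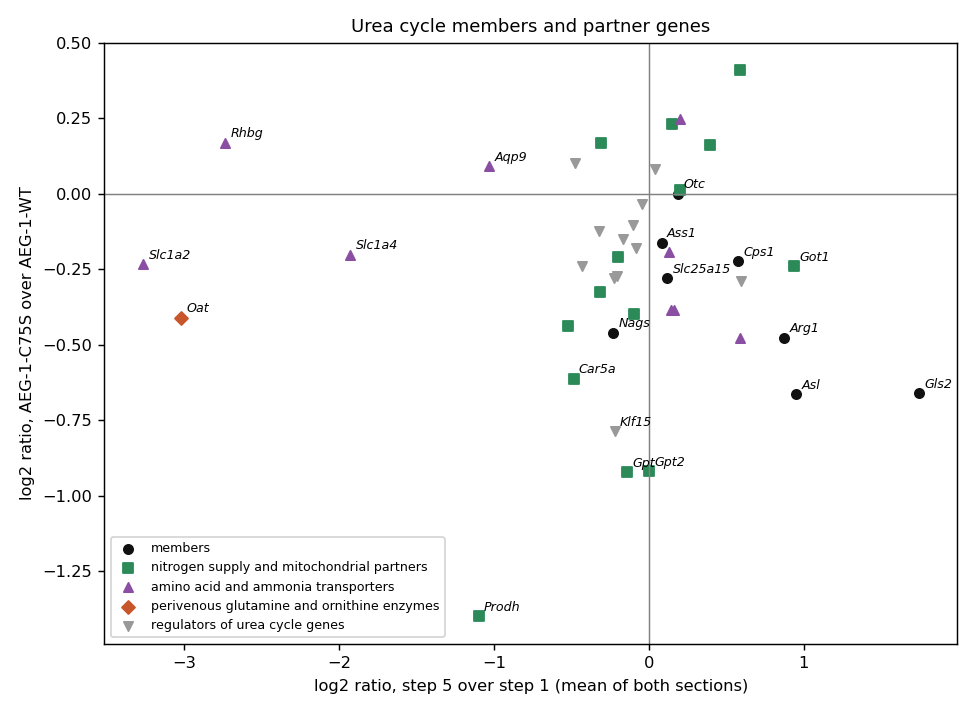
Each tested member and partner gene by its log2 ratio of step 5 over step 1 (horizontal, mean of both sections) and its log2 ratio of AEG-1-C75S relative to AEG-1-WT (vertical, 1 section per genotype); symbols give the list a gene belongs to. Gls2, Asl and Arg1 lie at the lower right, Oat and Slc1a2 at the far left, and Prodh lowest at -1.40.

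Across single spots the members with a periportal profile went together. Pearson's r of Cps1 with Arg1 in CPM was 0.60 over 2309 wild-type spots and 0.57 over 2163 knock-in spots, and 0.44 and 0.36 after the mean of each step was removed. The other pairs of Cps1, Arg1, Asl and Gls2 had r from 0.33 to 0.55, and from 0.11 to 0.27 within steps. Spots of a section share its library, and both genes of a pair share the UMI total of the spot, so these are descriptions without a test.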

How the data were processed

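Per the labels and the study's methods, the authors ran Visium for formalin-fixed tissue, aligned and counted with Space Ranger 2.0.1 on mm10, and named Seurat 4.3.0 in their notes. The deposited tables held raw UMI counts per gene and spot, 1 matrix per section, with gene and barcode lists. There were 0 columns of other samples. UMIs of probe ligations depend on each gene's probes, and intervals cover counting error only.

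Spots over 50000 UMIs, under 100 genes or over 7000 genes were left out, as in the study (7 in AEG-1-WT, 4 in AEG-1-C75S, of 2316 and 2167). Doublet calling was not used, since spots are regions. UMIs were summed per section, step or spot group and divided by the summed total (CPM). Intervals of ratios came from the exact binomial interval of the 2 sums. Intervals of differences of ratios were analytic, from the reciprocals of the 4 sums, in place of the Poisson draws first planned. Genes that reached 200 UMIs in the sum of both sections were tested against a fold only. Of 11 repeated symbols, 0 were members. The intervals were checked on counts simulated as Poisson draws, the model that they assume. Coverage near 95% thus checks the calculation only, and not variation between spots, sections or animals. The section interval covered the true value for 95.7% of 10394 genes, and the sign was right for 100% of 200 changed genes. For the axis the coverage was 95.7% of 6736 genes and the sign right for 97.5% in AEG-1-WT, and 95.7% of 6781 genes and 99% in AEG-1-C75S.

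Named genes were the 8 members, any gene of the listed partner and marker genes, and for each member the 3 genes with at least 2000 UMIs and the nearest profile. Members and lists were chosen with earlier results of these data known. Groups came from the labels. Alternatives covered the spot filter, TMM factors (edgeR 4.0.16), other totals, centring, spot weights, thinning to 3000 UMIs (seed 1), other axis genes, 3 or 10 steps, common cut points and group sizes. Positions came from GENCODE on GRCm38, promoters from RefSeq, in windows that end before both the GENCODE and the RefSeq start (63 bases before the RefSeq start for Ass1). Glutamine synthetase was not analysed here, and single values of some listed or neighbouring genes are not reported here. Python 3.11.15, numpy 2.4.6, scipy 1.17.1, pandas 2.3.3 and R 4.3.3 were used.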

Additional observations from a re-analysis of the deposited data

How the results depend on the processing

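No paired analysis was possible because each genotype had 1 section, and for the same reason no replicate could be left out. The number of members past 1.2-fold between the sections was 5 and ranged from 4 to 5 over 8 alternatives. Slc25a15 was inside 1.2-fold with TMM factors (-0.22), totals without the most abundant genes (-0.23) and centring on the median gene (-0.23). Along the axis the count was 3, and 3 to 4 over 10 alternatives, in AEG-1-WT, and 4, and 3 to 4, in AEG-1-C75S. Partner counts were 16 (14 to 18) between sections and 7 (7 to 10) along the axis. The number of members whose gradient differed past 1.2-fold was 0 and became 1 in 7 of 10 alternatives. That member was Asl with either other set of axis genes, with totals without the most abundant genes and without the marker-rich spots, Gls2 with common cut points (0.27), and Ass1 with 10 steps and in thinned spots (1.51, from few UMIs). The count in the spots richest in cholangiocyte and portal connective tissue markers was 3. It became 5 with 10% of the spots, 2 (Ass1 and Gls2) with thinned spots and 0 with only spots of the same step. The count in rim spots was 3 and became 5 with 2% of the spots. With thinned spots the 3 were Cps1 and Arg1, lower in the rim, and Ass1, higher there. The causes were not tested. With 431 and 380 UMIs, Ass1 had the widest counting intervals of the members. Its sign turned in 1 of 8 section alternatives and in 4 of 10 axis alternatives in AEG-1-WT, where it was past 1.5-fold with thinned spots (-1.19). The section sign of Otc turned in 2 of 8.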

Other observations

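Genes with the profile most like each member were found by the root mean square difference of log2 CPM over the 10 section steps, each section centred on its own mean, among 4559 genes. Nearest to Gls2 were Tstd1 (0.093), Sfxn1 (0.10) and Hal (0.12), which made Gls2 the member with the most distant neighbours. Nearest to Asl were Nnmt (0.050), Apoc2 (0.063) and Hpx (0.065), to Arg1 Pigr (0.054), Atp1b1 (0.058) and Hpx (0.059), and to Cps1 Hgfac (0.046) and Ccl9 (0.052). Otc lay nearest to Atp5b (0.031), Ndufv1 (0.032) and Slc25a22 (0.036). Slc25a15 lay nearest to Pik3ap1 (0.029), Herpud1 (0.029) and H2afy (0.033), and Nags to Pdhx (0.027), Eef2 (0.029) and Cct2 (0.030). A flat profile has many near neighbours, so small distances for Otc, Slc25a15 and Nags say little about any single gene, and Ass1 was under the 2000 UMIs this measure asked for.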
